A study of Mus musculus with 3 samples.

Results

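Caveolins and cavins are the coat proteins of caveolae, and their transcripts were followed here in mouse cardiac myofibroblasts on plastic, in suspension and back on plastic. The set comprised 8 genes, chosen by name: the caveolins Cav1, Cav2 and Cav3, the cavins Cavin1 (older symbol Ptrf), Cavin2 (Sdpr) and Cavin3 (Prkcdbp), the membrane ATPase gene Ehd2 and the F-BAR protein gene Pacsin2. The rule lists genes by name and uses no measured value, although the set was proposed with earlier results of these data known. All 8 were on the array and were well above background on all 3 arrays, among 15393 named genes that were well above background on at least 1 array. They were measured by 10 array features on 19 spots, with a pair of features each for Cav2 and Cavin1.

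Cells came from hearts of male C57BL/6J mice in which the left anterior descending coronary artery had been permanently ligated. The labels give an age of 8 weeks, whereas the treatment protocol gives 10 weeks at ligation. Hearts were digested 3 days after ligation, and the cells that attached to plastic overnight were depleted of cells carrying CD45, a leukocyte surface protein, with the remainder defined as myofibroblasts. The adherent sample was grown on plastic plates, the non-adherent sample was moved from plates into suspension, and the re-adherent sample was returned from suspension to plates. Ligation, attachment and CD45 depletion were therefore shared by all 3 groups, and no sample came from an uninjured heart. Each sample was a mixture of hearts on 1 array, so no spread between biological replicates exists and no p-value is given. The states were collected one after another from the same kind of culture, so time in culture and state cannot be told apart. In mixed cultures of this kind, fewer cells of a type and less RNA per cell cannot be told apart either.

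Caveolae are flask-shaped pits of the plasma membrane that are abundant in fibroblasts, muscle, endothelium and fat. Caveolins are hairpin proteins that insert into the inner leaflet and form oligomers, and cavins are soluble coiled-coil proteins that assemble on top of them to shape the pit. Caveolae flatten when a membrane is stretched, and they are rich in cholesterol and hold many signalling proteins.

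Of the 8 genes, 6 were more than 2-fold lower in non-adherent than in adherent cells, namely Cav1, Cav3, Cavin1, Cavin2, Cavin3 and Ehd2, on arrays where 14.7% of all genes were that much lower. None was more than 2-fold higher in suspension, a change seen in 17.2% of all genes. On re-adhesion the same 6 genes were more than 2-fold higher than in suspension, against 15.6% of all genes, and none was more than 2-fold lower, against 16.3%. The remaining genes, Cav2 and Pacsin2, differed by less than 2-fold in every pair of arrays. Both steps share the non-adherent array, so the return is not independent of the loss. The pattern of lower in suspension and higher on re-adhesion, each by more than 2-fold, was met by 6 of 8 genes here and by 1725 of 15393 genes in all, or 11.2%. With a threshold of 4-fold, 5 of the 8 genes were lower in suspension (822 of all genes) and 5 were higher on re-adhesion (878 of all genes), with Cavin3 outside in both steps. The median log2 difference of the 8 genes was -2.61 in suspension and 2.86 on re-adhesion, where the medians of all genes were -0.07 and 0.08.

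**Figure D1:**
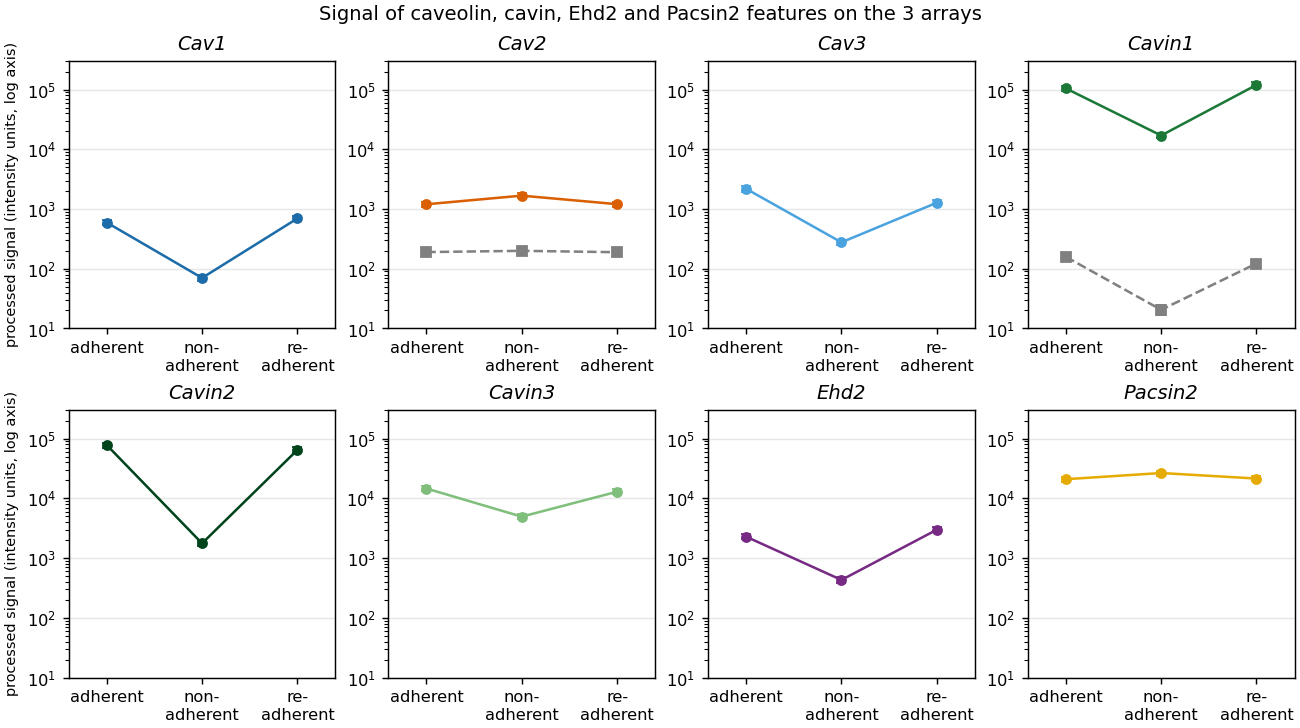
Processed signal in intensity units on a log axis for each of the 8 genes in adherent, non-adherent and re-adherent cells, with bars for the error the scanner software gave each spot and grey dashed lines for the second feature of Cav2 and Cavin1. The V shape is seen for 6 genes, deepest for Cavin2 (78109, 1765 and 64779 units), while Cav2 (1201, 1674 and 1206 units) and Pacsin2 (20944, 26581 and 21491 units) stay nearly level.

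Signals are given below in intensity units before scaling, with the software's error of the spot. The 75th percentile of the 59305 non-control spots, by which each array was scaled, was 651 units in adherent, 697 in non-adherent and 541 in re-adherent cells. Log2 differences are those after this scaling, and their error is the combined spot error of both arrays (median over genes 0.20 in every pair of arrays), which covers technical error within arrays only. Signals of different features are not compared with each other, because features bind with unequal strength.

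Among the caveolins, Cav1 and Cav3 were low in suspension and Cav2 was not. Cav1, the caveolin that builds caveolae in most non-muscle cells, gave 594 ± 59.6 units in adherent, 70.1 ± 7.87 in non-adherent and 695 ± 69.7 in re-adherent cells. The suspension array was the low one, and the attached states lay close together. Cav1 was thus 9.07-fold lower in non-adherent than in adherent cells (log2 difference -3.18 ± 0.22) and 12.8-fold higher in re-adherent than in non-adherent cells (3.67 ± 0.22). In order of the loss it was number 314 from the lowest of the 15393 genes, and in order of the return number 299 from the highest. Re-adherent and adherent cells differed by 0.49 ± 0.20 on the log2 scale. The Cav1 feature is named for 1 of the gene's RefSeq transcripts, and which other Cav1 transcripts it detects was not tested.

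Cav2, the partner that joins Cav1 in mixed oligomers, was measured on 10 spots per array. The lowest, median and highest spot read 1108, 1201 and 1256 units in adherent cells, 1611, 1680 and 1741 units in non-adherent cells, and 1125, 1223 and 1267 units in re-adherent cells. All 10 non-adherent spots were above all spots of the other arrays before scaling, although that array also had the highest 75th percentile. After scaling, Cav2 was 0.38 higher in non-adherent than in adherent cells on the log2 scale, with an SD of 0.04 between the 10 spots, and re-adherent cells lay at -0.11 from non-adherent cells (SD 0.08 between spots). The spots of 1 feature share their RNA and are not replicates of the state. Its second feature read 190 units in adherent, 199.5 in non-adherent and 189 in re-adherent cells, with log2 differences of -0.03 ± 0.21 in suspension and 0.29 ± 0.21 on re-adhesion. The features of Cav2 therefore disagree in sign in both steps, and both place Cav2 within 2-fold throughout. Over the alternatives the first step, with a software error of 0.20, ranged from 0.08 with spike-in scaling to 0.48 with the deposited matrix. The small second step ranged from -0.47 with no scaling to 0.09 with the mean over both features, the only alternative that turned its sign.

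Cav3, the caveolin of striated muscle, was measured at 2180 ± 218 units in adherent, 277 ± 27.9 in non-adherent and 1274 ± 128 in re-adherent cells. It was 8.43-fold lower in suspension (log2 difference -3.07 ± 0.21) and 5.92-fold higher on re-adhesion (2.57 ± 0.21). Here the re-adherent array stayed below the adherent one, by a log2 difference of -0.51 ± 0.20, the lowest of the 8 genes in that pair of arrays. Of 9 cardiomyocyte markers, Actn2, Ryr2, Pln and Ttn did not rise well above background in any state, and Tnni3 and Mb did so in non-adherent cells only, which leaves no measure of a fall for them. The other 3, Myh6, Tnnt2 and Myl2, were at 0.96, 0.59 and 1.12 in suspension and at -1.13, 1.15 and 0.17 on re-adhesion. Myh6 (26.9 to 75.6 units) and Myl2 (21.7 to 50.6 units) were dim on all arrays. The part of muscle cells in the Cav3 values was not tested.

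Cav1 and Cav2 are direct neighbours on mouse chromosome 6, on the same strand and with no annotated gene between them, and their transcripts differed in both steps. Within the same arrays, where a constant scaling cancels, the change of Cav1 was below that of Cav2 by 3.56 ± 0.30 log2 units in suspension (log2 difference of changes -3.56, or 11.8-fold) and above it by 3.78 ± 0.30 on re-adhesion (13.8-fold). Over the alternatives these values ranged from -3.58 to -2.66 and from 2.90 to 3.83. Between re-adherent and adherent cells the changes of the neighbours differed by 0.22 ± 0.29, less than the technical error.

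The promoters of these neighbours are shown because the genes lie side by side and responded unlike each other, together with that of Cav3, which shared the direction of Cav1. Sequences are from RefSeq (GRCm38.p6) and run 5′ to 3′ on the strand of the gene, from 250 bases before to 50 bases after an annotated start; 7 of the 8 genes had an entry, and Cav1 had 2 such windows, of which the first is printed. The windows lie at chr6:17306085-17306384 (Cav1), chr6:17280935-17281234 (Cav2) and chr6:112459255-112459554 (Cav3), all on the plus strand. Capitals mark GGAATG, the core recognised by TEAD factors, and GGGCGG, the core of Sp1 sites, or their reverse complements CATTCC and CCGCCC, and overlapping copies of the same motif are marked once.
Cav1: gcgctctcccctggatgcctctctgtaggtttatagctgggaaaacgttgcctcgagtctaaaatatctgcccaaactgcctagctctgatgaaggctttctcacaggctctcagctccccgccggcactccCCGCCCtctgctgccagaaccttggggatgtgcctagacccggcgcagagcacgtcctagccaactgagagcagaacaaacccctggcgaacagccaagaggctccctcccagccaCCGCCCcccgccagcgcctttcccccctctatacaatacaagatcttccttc
Cav2: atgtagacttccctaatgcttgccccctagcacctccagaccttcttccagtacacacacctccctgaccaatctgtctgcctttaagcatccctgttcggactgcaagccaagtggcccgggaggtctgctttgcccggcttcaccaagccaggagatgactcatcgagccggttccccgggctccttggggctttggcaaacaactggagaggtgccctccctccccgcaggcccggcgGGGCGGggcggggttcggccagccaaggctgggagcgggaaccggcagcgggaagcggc
Cav3: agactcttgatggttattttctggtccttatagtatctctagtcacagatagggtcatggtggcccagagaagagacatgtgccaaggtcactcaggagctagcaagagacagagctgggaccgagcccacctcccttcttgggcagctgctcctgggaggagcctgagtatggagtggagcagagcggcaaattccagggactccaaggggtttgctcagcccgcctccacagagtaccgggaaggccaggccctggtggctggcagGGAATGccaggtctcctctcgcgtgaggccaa
The Cav1 window held CCGCCC at 2 places and the Cav2 window held GGGCGG just before the start, so the Sp1 core was present at both neighbours. GGAATG was found in the Cav3 window, 18 bases after the start, and in neither printed window of the neighbours. The Cav1 window had 59.3% G and C with 13 CpG dinucleotides, that of Cav2 had 64.3% with 16, and that of Cav3 had 58.0% with 6, where the median of 32851 mouse windows was 52.7% with 7. Motif matches are a description of letters and were not tested for binding.

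All 3 cavins were lower in suspension and returned on re-adhesion, to very unequal extents. Cavin1, without which caveolae do not form, read 104640 ± 10464 units in adherent, 17021 ± 1702 in non-adherent and 119677 ± 11968 in re-adherent cells. Its log2 difference was -2.72 ± 0.20 in suspension (6.58-fold lower) and 3.18 ± 0.20 on re-adhesion (9.05-fold higher). The second Cavin1 feature moved in the same directions, from 158 units in adherent to 20.5 in non-adherent and 122 in re-adherent cells, with log2 differences of -3.04 ± 0.30 and 2.94 ± 0.31. The features differed in the sign of the small gap between re-adherent and adherent cells, at 0.46 ± 0.20 and -0.11 ± 0.21.

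Cavin2, a cavin that promotes membrane curvature, had the widest swing of the set. Its signal was 78109 ± 7811 units in adherent, 1765 ± 177 in non-adherent and 64779 ± 6478 in re-adherent cells. Cavin2 was 47.4-fold lower in suspension (log2 difference -5.57 ± 0.20) and 47.2-fold higher on re-adhesion (5.56 ± 0.20), which placed it number 37 from the lowest of the 15393 genes in the loss and number 58 from the highest in the return. Re-adherent and adherent levels of Cavin2 coincided within the technical error under the scaling used (-0.004 ± 0.20). Over the alternatives this difference ranged from -0.44 with spike-in scaling to 0.08 with the array median.

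Cavin3, which binds protein kinase C delta and joins the cavin coat, changed least among the cavins. It was measured at 14627 ± 1463, 4946 ± 495 and 12922 ± 1292 units in adherent, non-adherent and re-adherent cells. The log2 differences were -1.66 ± 0.20 (3.17-fold lower) and 1.75 ± 0.20 (3.36-fold higher), and re-adherent cells lay 0.09 ± 0.20 from adherent cells. The change of Cavin2 exceeded that of Cavin3 in suspension, with a log2 difference of changes of -3.90 ± 0.29 (15.0-fold), and on re-adhesion, with 3.81 ± 0.29. Cavin1 lay between them, its change being 2.85 ± 0.29 above that of Cavin2 in suspension. Cav1 and Cavin1, the core pair of most caveolae, changed in the same directions. Their difference of changes was -0.46 ± 0.30 in suspension and 0.49 ± 0.30 on re-adhesion. Over the alternatives it ranged from -0.60 to 0.44 in suspension and from -0.43 to 0.97 on re-adhesion. In both steps its sign turned with normexp background correction.

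The promoters of Cavin1 and Cavin2 are shown because Cavin1 is required for caveolae and Cavin2 had the widest swing. They lie at chr11:100970568-100970867 on the minus strand and chr1:51288876-51289175 on the plus strand, with capitals as above.
Cavin1: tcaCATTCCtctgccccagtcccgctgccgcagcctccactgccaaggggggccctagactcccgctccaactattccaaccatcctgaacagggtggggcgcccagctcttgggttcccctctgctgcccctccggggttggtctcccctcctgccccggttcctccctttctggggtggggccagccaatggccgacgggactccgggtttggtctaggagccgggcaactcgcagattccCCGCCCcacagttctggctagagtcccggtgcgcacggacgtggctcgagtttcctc
Cavin2: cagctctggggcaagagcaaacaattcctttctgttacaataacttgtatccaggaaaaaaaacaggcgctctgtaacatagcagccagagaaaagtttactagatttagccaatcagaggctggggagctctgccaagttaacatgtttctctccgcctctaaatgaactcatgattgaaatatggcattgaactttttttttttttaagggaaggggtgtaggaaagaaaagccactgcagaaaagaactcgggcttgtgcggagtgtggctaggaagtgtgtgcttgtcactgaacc
The Cavin2 window held none of the marked motifs, and at 43.3% G and C with 4 CpG dinucleotides it was the poorest in G and C of the 11 windows of the set. The Cavin1 window held CATTCC near its far end and CCGCCC just before the start, in 66.7% G and C with 17 CpG dinucleotides. Across all windows searched on both strands, GGAATG was present in 14.7%, and in 3 of the 11 windows of the 7 genes, from Cav3 and Cavin1. GGGCGG was present in 35.7%, and in 6 of the 11, from Cav1, Cav2, Cavin1, Ehd2 and Pacsin2. A second Cavin1 window overlaps the printed one almost fully, so its matches are not separate sites. The CArG box, the site of serum response factor, was present in 1.63% of all windows and in none of the 11. TATAAA was present in 13.6% of all windows and among the set in the printed Cav1 window, on the opposite strand.

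Of the accessory genes, Ehd2 followed the coat and Pacsin2 did not. Ehd2, a dynamin-related ATPase that forms a ring at the neck and keeps caveolae at the surface, was measured at 2283 ± 228 units in adherent, 431 ± 43.2 in non-adherent and 2985 ± 299 in re-adherent cells. It was 5.67-fold lower in suspension (log2 difference -2.50 ± 0.20) and 8.92-fold higher on re-adhesion (3.16 ± 0.20). Pacsin2, which senses and bends membrane at the neck and also acts in other endocytosis, read 20944 ± 2094, 26581 ± 2658 and 21491 ± 2149 units in adherent, non-adherent and re-adherent cells. Its log2 differences were 0.25 ± 0.20 and 0.06 ± 0.20, and both changed sign with the scaling (ranges -0.06 to 0.46 and -0.31 to 0.07). Within the arrays the change of Ehd2 lay below that of Pacsin2 by a log2 difference of -2.75 ± 0.29 in suspension and above it by 3.10 ± 0.29 on re-adhesion.

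**Figure D2:**
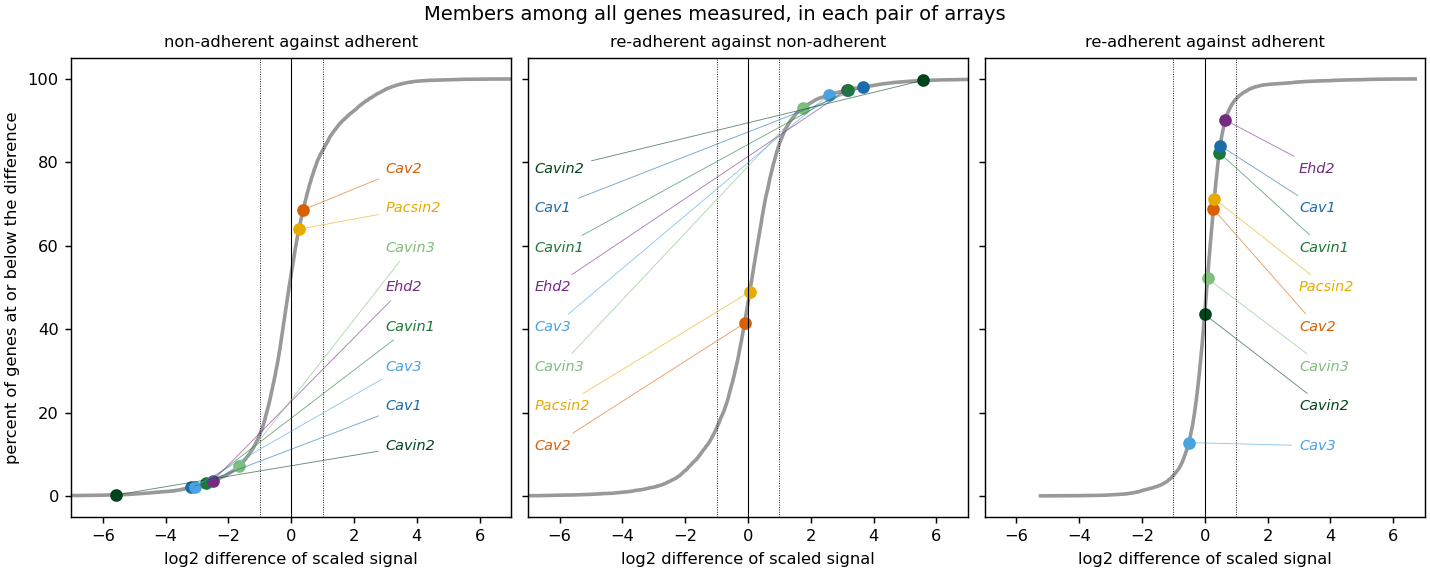
Percent of the 15393 genes at or below each log2 difference of scaled signal (grey curve) for non-adherent against adherent, re-adherent against non-adherent and re-adherent against adherent cells, with the 8 genes as coloured points and dotted lines at 2-fold. In the left panel 6 points sit at the low end of the curve and in the middle panel the same 6 at the high end, while in the right panel all 8 lie between the dotted lines, from -0.51 (Cav3) to 0.65 (Ehd2).

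Re-adherent cells were compared with adherent cells to see whether the levels came back. None of the 8 genes was more than 2-fold lower, against 4.9% of all genes, and none was more than 2-fold higher, against 4.84%. The differences ran from -0.51 for Cav3 to 0.65 ± 0.20 for Ehd2 (1.57-fold higher), which was number 1517 from the highest of the 15393 genes. The median of the 8 genes was 0.29 and that of all genes 0.06. Ehd2, Cav1 and Cavin1 were above their adherent level under all 12 alternatives (lowest values 0.22, 0.06 and 0.03) and Cav3 was below it (-0.94 to -0.42). The lowest values of Cav1 and Cavin1 lie within the technical error of 0.20. The second Cavin1 feature was at -0.11, so the direction of Cavin1 is not settled. For Cav2, Cavin3 and Pacsin2 the direction turned with spike-in scaling (-0.16, -0.35 and -0.13), and for Cavin2 with scaling by the array median (0.08). Cavin3 also turned with quantile normalization (-0.09), no scaling (-0.18) and the deposited matrix (-0.09). The order of Cav2, Cavin2, Cavin3 and Pacsin2 between the attached states is therefore not settled.

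**Figure D3:**
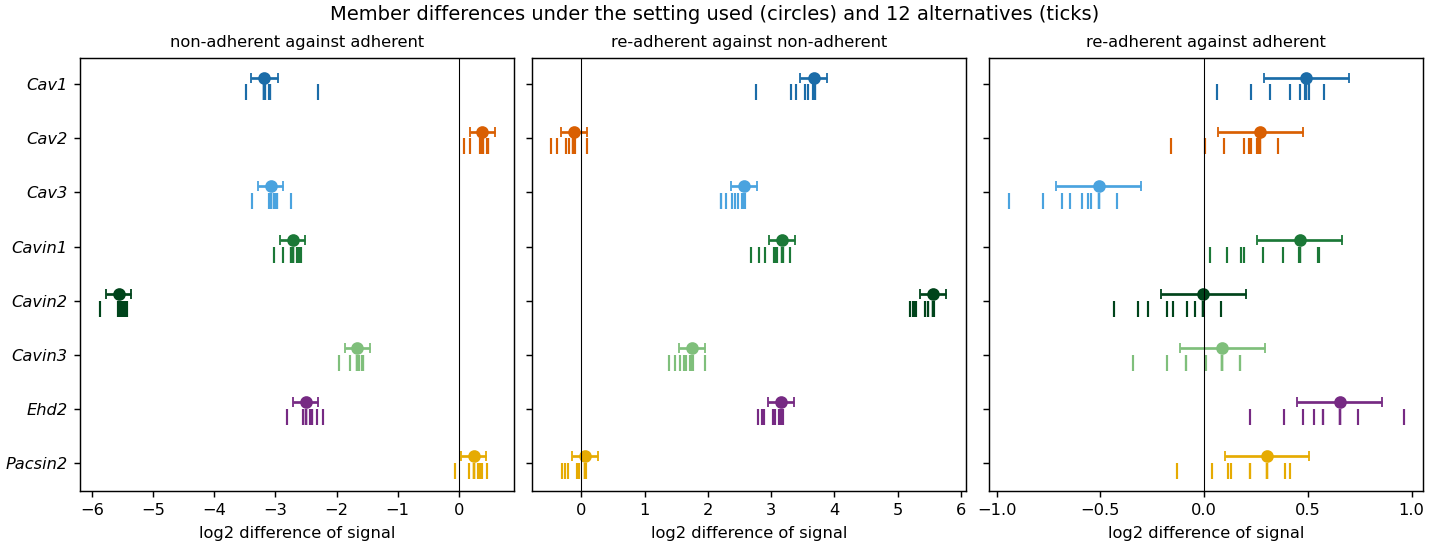
Log2 difference of signal for each of the 8 genes in the 3 pairs of arrays, as used in the text (circles, with bars for the combined technical error of both spots) and under 12 alternatives of scaling, background correction, filter and position on the array (ticks). The 6 changed genes stay far from 0 in the first and second panel under all alternatives (Cav1 -3.48 to -2.30 and 2.76 to 3.69), whereas in the third panel, drawn on a finer axis, ticks of several genes cross 0.

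The genes whose 3 centred levels lay nearest to those of Cav1 were Ccn5, a matricellular protein gene (Euclidean distance 0.03 log2 units), Samd4 (0.06), Hspb7 (0.06), the small MAF factor gene Maff (0.11) and Fez1 (0.13), among 13475 genes well above background on all 3 arrays. Nearest to Cavin1 were Tmeff2 (0.04), the protein kinase A inhibitor gene Pkia (0.05), the tubulin gene Tuba1a (0.08), Ankrd52 (0.09) and Speer1 (0.09). Within the set, Ehd2 was the gene nearest to Cavin1, at 0.17, and Cav1 lay at 0.39, while Cav2 and Pacsin2 were the farthest, at 2.61 and 2.49. With 3 arrays a profile has only these 3 points, and many genes share so simple a shape.

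Close relatives of the set and other caveola proteins moved less uniformly. Of 11 such genes, all above background, 1 was more than 2-fold lower in suspension and 3 were more than 2-fold higher. Over all genes, 14.7% were more than 2-fold lower and 17.2% higher. The median log2 difference of the 11 was -0.41. The lower one was Cavin4, the muscle cavin, which read 129, 32.7 and 59.5 units in adherent, non-adherent and re-adherent cells (-2.08 ± 0.24 in suspension, 1.23 ± 0.26 on re-adhesion), so all 4 cavins shared the direction. The higher ones were Ehd4 (2.11), a relative of Ehd2 in endosomes, Stom (2.11), which encodes the membrane scaffold stomatin, and Plvap (1.85), the diaphragm protein of endothelial caveolae. Ehd2 differed from its relatives in size or sign: Ehd1 was at -0.98 ± 0.20, Ehd3 at -0.66 ± 0.20 and Ehd4 at 2.11 ± 0.20 in suspension. On re-adhesion Ehd1 was at 1.55, Ehd3 at 0.74 and Ehd4 at -1.34. Ehd1 and Ehd3 thus shared the directions of Ehd2 in both steps, at a smaller size. Pacsin1 and Pacsin3 were at -0.38 and -0.79 in suspension, beside 0.25 for Pacsin2, and at 0.38 and 1.48 on re-adhesion, beside 0.06. Of the 11 genes, 3 were more than 2-fold lower and 3 higher on re-adhesion (median 0.71), against 16.3% and 15.6% of all genes. The flotillins, which scaffold other membrane domains, stayed within 2-fold (Flot1 -0.41, Flot2 -0.27 in suspension). Spike-in scaling moved the median of all genes in suspension from -0.07 to -0.37, so single values and list medians this close to 0 have no settled direction.

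Genes of caveola scission and actin linkage were mostly level. Of 11, 2 were more than 2-fold lower in suspension and 1 higher (Dnm3, well above background in non-adherent cells only), with a median of -0.15. Over all genes, 14.7% were that much lower and 17.2% higher by more than 2-fold. Flna, which ties caveolae to actin, was at -1.59 in suspension and 1.57 on re-adhesion. Dynamin 2, the scission GTPase gene Dnm2, was at 0.62 in suspension and the kinase gene Src at -0.41.

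Signalling proteins studied in caveolae had no common direction. Of 14 listed, 13 passed the filter, and 3 were more than 2-fold lower and 6 higher in suspension (median 0.10), where 14.7% of all genes were that much lower and 17.2% higher. Prostacyclin synthase, Ptgis, was lower at -1.98 and regained 2.61 on re-adhesion, and the integrin gene Itgb1 was at -1.35 and 1.28. Endothelial nitric oxide synthase, Nos3, which Cav1 binds, was higher at 2.86 and then lower at -2.84, as was the fatty acid transporter Cd36 (2.87 and -2.83). Tgfbr1 and Tgfbr2, the receptors of TGF-beta, were higher by 1.38 and 1.79 in suspension.

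Genes that supply cholesterol, on which caveolae depend, and genes of clathrin-coated pits are set beside the same shares of all genes, 17.2% higher and 14.7% lower. In suspension 5 of 12 cholesterol genes were more than 2-fold higher and 1 lower (median 0.51), among them the lysosomal transporter gene Npc1 (2.33) and the efflux pump gene Abca1 (2.26). Srebf2, the master regulator of sterol synthesis, was at 3.12 on its brighter feature and at -0.44 on the other, so its direction is not settled. Of 20 clathrin genes, 19 passed and 6 were more than 2-fold higher and 1 lower in suspension (median 0.64). Dab2, a cargo adaptor, was at 2.26, Fcho1, an early pit factor, at 2.56 (0.66 on its second feature), and the light chain gene Cltb was the lower one at -1.24, with 2.12 on re-adhesion.

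**Figure D4:**
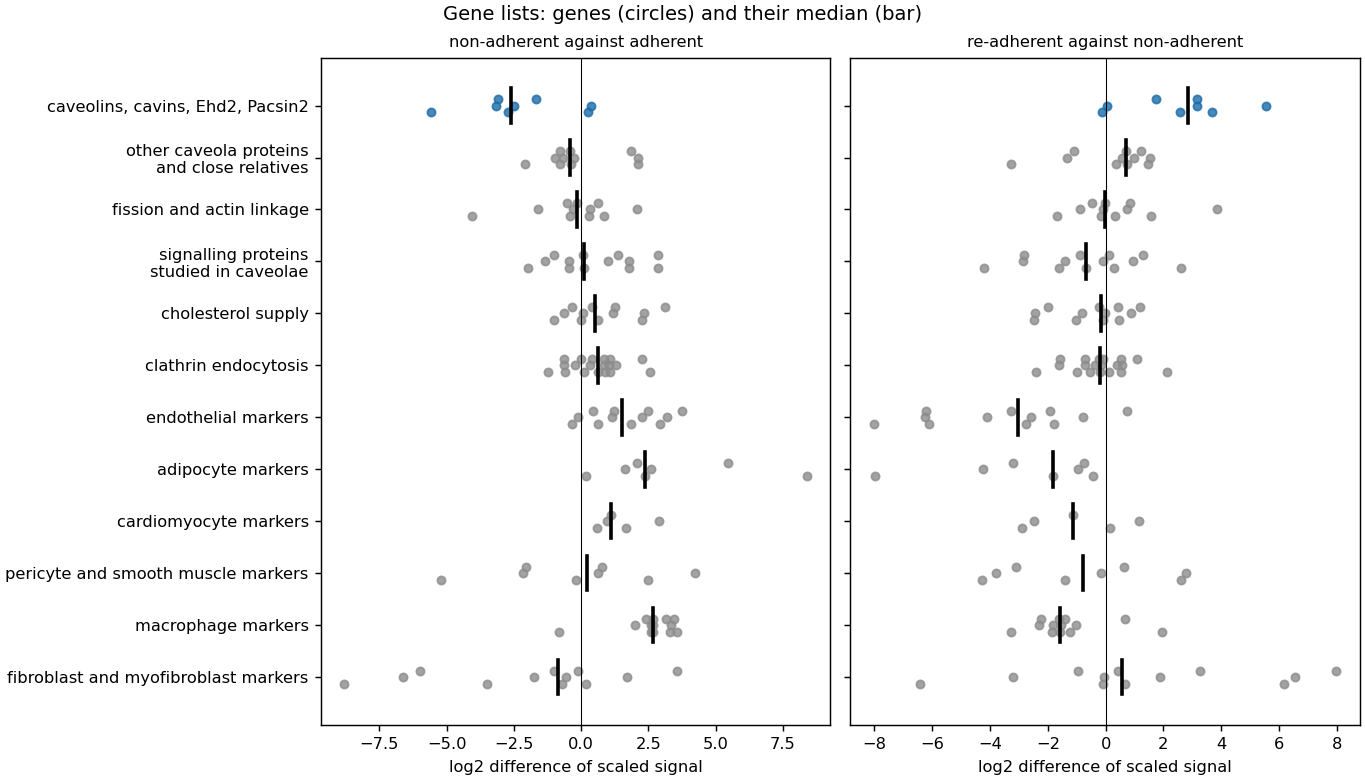
Log2 difference of scaled signal for every gene of each list that passed the filter (circles) and the list's median (black bar), for non-adherent against adherent cells on the left and re-adherent against non-adherent cells on the right. The caveolin and cavin set has the lowest median on the left (-2.61) and the highest on the right (2.86). The medians of the macrophage, adipocyte and endothelial markers lie on the opposite side. Single markers depart from this, such as Itgam (-0.84 and 0.68) and Kdr (-0.35 and 0.74). Of the 7 adipocyte genes shown, only 3 were well above background in the attached states.

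Markers of other cells moved with the states, and their part in the values above was not tested. In suspension 17.2% of all genes were more than 2-fold higher and 14.7% lower. Of 14 macrophage markers, 13 passed the filter and 12 were more than 2-fold higher in suspension (median 2.68), with Mrc1 at 3.58 and the leukocyte gene Ptprc, which encodes the CD45 used for depletion, at 355, 2441 and 532 units in adherent, non-adherent and re-adherent cells. Itgam went the other way, at -0.84 in suspension and 0.68 on re-adhesion, and Cx3cr1 was higher in both steps (2.67 and 1.95). The summed scaled signal of the macrophage markers was 216 in adherent, 1326 in non-adherent and 446 in re-adherent cells, where 1 is the 75th percentile of the array. The summed signal of the 12 fibroblast and myofibroblast markers was 2399, 906 and 2154, with 6 lower and 2 higher by more than 2-fold in suspension. Acta2, the myofibroblast actin, was at -6.64 in suspension and 6.57 on re-adhesion, and Lum was higher in suspension at 3.56.

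Endothelium and fat are cell types rich in caveolae. Counts in suspension are again set beside 17.2% of all genes higher and 14.7% lower. Of 12 endothelial markers none was more than 2-fold lower in suspension and 8 were higher (median 1.53, Cdh5 2.94), with summed signals of 25.5, 43.7 and 23.1 in adherent, non-adherent and re-adherent cells. The similar sums of the attached states hide lower values of most single markers. Of the 12, 8 were more than 2-fold lower in re-adherent than in adherent cells (median -1.77, Cdh5 -3.18), against 4.9% of all genes. Among those counted, Tie1, Emcn, Cldn5 and Robo4 were not well above background in re-adherent cells. The size of their fall is therefore not measured. Kdr, at 9446, 7939 and 10320 units, stayed level. Of 8 adipocyte markers 7 passed, and 6 were higher and none lower (median 2.36, Fabp4 2.62), with sums of 5.65, 33.2 and 4.43. Only Fabp4, Pparg and Adrb3 were well above background in the attached states, so the other 4 passed through the non-adherent array and could only come out higher. Of 8 pericyte and smooth muscle markers 3 were lower (among them Des -2.17 and Cspg4 -2.06) and 2 higher, with sums of 4.14, 4.23 and 2.25. The higher ones, Abcc9 and Kcnj8, were likewise well above background in non-adherent cells only, and Myh11, the third lower one, in attached cells only. Cardiomyocyte marker sums were 1.04, 1.69 and 3.19. The caveolin and cavin set itself summed to 345, 75.7 and 416 in adherent, non-adherent and re-adherent cells. All such sums add features that bind with unequal strength, so a few bright genes can carry them. Whether cell composition had a part in the values of the set was not tested.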

How the data were processed

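RNA of the adherent, non-adherent and re-adherent samples was hybridised in 1 colour (Cy3) to Agilent mouse arrays, 1 array per group. The authors deposited scanner output of Agilent Feature Extraction 10.10.1.1 (version per the file headers), whose processed signal is an intensity on a linear scale after background subtraction and spatial detrending, with an error and flags per spot. The deposited series matrix is also intensity, equal to the processed signal times 1 constant per array (1.52, 1.52 and 1.62), and was used as an alternative. The study's methods name no normalization.

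Here, flagged spots (154, 180 and 175 of 59305 non-control spots) were left out and none was saturated. Well above background were 58.1%, 59.9% and 53.9% of non-control spots in adherent, non-adherent and re-adherent cells. The log2 processed signal was reduced by the 75th percentile of each array, and spots of a feature were averaged. Of 37874 transcript names, 21462 matched RefSeq (GRCm38.p6, without versions), which named 27229 of 55665 features. The array was designed on an earlier assembly, so coordinates are given only for the RefSeq promoter windows. Features were kept when at least 1 array had them well above background, and the one with the highest mean represented its gene.

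With 1 array per group, log2 differences carry a technical error from the software's spot errors and no p-value, and the number of arrays limits the precision. Features spotted 10 times gave a median SD between spots of 0.07, 0.08 and 0.06 for the differences non-adherent against adherent, re-adherent against non-adherent and re-adherent against adherent. Steps were tested on simulated data. Genes and lists were chosen with earlier results of these data known. Named were all 8 genes with every feature, up to 5 genes per other list over 4-fold changed in either step, Acta2, and the 5 nearest profiles of Cav1 and Cavin1. Other members of the lists are named where they are relatives or partners of the 8 genes, a choice made with their values in view. The values of 1 list gene are not reported here. Alternatives were other scalings (median, features well above background on all arrays, quantile, none, spike-ins), the deposited matrix, normexp (limma 3.58.1 in R 4.3.3, offset 50, on the median spot signal because the files used here hold no mean signal), other filters, a signal floor, the mean over features, a correction over 5 rows and columns around a spot, and thresholds of 1.5-fold and 4-fold. Python 3.11.15 with numpy 2.4.6 and pandas 2.3.3 was used.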

Additional observations from a re-analysis of the deposited data

How the results depend on the processing

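No paired analysis was possible because a group is 1 array, and for the same reason no replicate could be left out. Over 12 alternatives, Cav1, Cav3, Cavin1, Cavin2, Cavin3 and Ehd2 kept their direction in both steps and stayed more than 2-fold changed. The median log2 difference of the 8 genes in suspension, -2.61, was -2.91 with spike-in scaling and -2.31 with normexp. On re-adhesion, 2.86 became 2.61 with quantile normalization, 2.50 with no scaling, 2.59 with the deposited matrix and 2.48 with normexp. Between re-adherent and adherent cells, 0.29 became 0.021 with no scaling and -0.15 with spike-in scaling, which moved the median of all genes to -0.37 in that pair and to -0.37 in suspension. At 1.5-fold, 1 gene (Ehd2) was higher in re-adherent than in adherent cells, in place of 0.

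Counts over all genes moved more. In suspension 2266 lower genes became 3462 with spike-in scaling. On re-adhesion 2504 lower genes became 1555 with normexp, and 2398 higher genes became 1524 with no scaling. Between re-adherent and adherent cells, 754 lower genes became 1734 with spike-in scaling, 1205 with no scaling, 454 with a signal floor, 336 with the filter on all 3 arrays and 187 with normexp, and 745 higher genes became 1226 with no filter, 483 with no scaling, 431 with the filter on all 3 arrays, 372 with spike-in scaling and 330 with normexp. The cause was not tested. For dim features, signal over background limits the size of a difference: the lowest signal well above background was 14.0 to 18.3 units, and the second Cavin1 feature read 20.5 units in suspension.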
